A study of Solanum chacoense with 24 samples.

Results

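Leaves of USDA8380-1, a genotype of the wild potato relative Solanum chacoense, were followed over 48 h in a cage that received no beetles. The members are the control-arm libraries of this genotype, 6 of the 24 libraries of the series, chosen by their labels: 0 h replicates 2 and 3, 24 h replicates 1 and 2, and 48 h replicates 1 and 3. The series compared the genotypes USDA8380-1 and EE501F2_093 with and without feeding by the Colorado potato beetle. The 6 plants of a genotype stood in pairs in cages, of which 2 were given adult beetles (50, at a plant age of 15 weeks) and 1 was the beetle-free control. All cages shared a growth chamber with a 16 h photoperiod. Every combination of genotype, arm and harvest has 2 libraries, and each library is a pool of equal amounts of leaf tissue taken at one leaf position, called a biological replicate by the labels. The hours count from the placement of beetles in the other cages, and the 0 h harvest preceded it, so the beetle arm was also free of beetles at 0 h. All USDA8380-1 control libraries come from 1 cage, and the labels do not say which of its plants entered which pool. Its harvests are therefore repeated samplings of the same few plants, treated by the tests as independent, and p-values measure only the spread between pools.

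Solanum chacoense is known for glycoalkaloids that deter the Colorado potato beetle, and USDA8380-1 is a genotype known for making the acetylated forms called leptines. The mRNA of a mature potato leaf is dominated by transcripts for photosynthesis, and many leaf genes cycle with a daily clock. A beetle-free arm measures how far the leaf transcriptome moves between harvests without feeding. The files give gene identifiers without names, and 0 of them could be paired with a product here. Genes are therefore named by identifier alone, nothing is said of their functions, and the labelled tissue could not be checked against leaf marker genes. In these identifiers the digits before the letter G are read as the chromosome.

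Counts on genes were 30641544 and 31434934 at 0 h, 51999317 and 28293997 at 24 h, and 40750079 and 27859692 at 48 h. Reads outside genes made up 9.65 to 11.2% in the 4 libraries of 24 and 48 h, against 7.66 and 9.53% at 0 h. Their share is taken of the reads on genes, outside them or ambiguous between genes. The 100 most abundant genes of a library took 26.0 to 31.2% of its counts at 24 and 48 h, against 38.2 and 32.8% at 0 h. In EE501F2_093 controls the same share was 25.7 to 29.0% at 24 and 48 h, against 26.0 and 30.7% at 0 h. Both shares thus differed between 0 h and later libraries of USDA8380-1 controls, but little between 0 h replicate 3 (9.53 and 32.8%) and 48 h replicate 3 (9.65 and 31.2%). In the USDA8380-1 beetle arm the top 100 share was 28.4 and 21.1% at 0 h, against 30.7 to 36.7% later. The 21.1% is from a library of 2114184 counts. Reads outside genes in EE501F2_093 controls were 10.2 and 11.9% at 0 h, against 9.71 to 11.7% later. The part of these shares in the results below was not tested.

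The most abundant transcripts were in part the same genes at each harvest. The 100 genes with the highest share of counts at 0 h held 38.0 and 32.3% of counts at 0 h, 21.0 and 22.1% at 24 h, and 19.9 and 25.7% at 48 h. Those chosen at 24 h held 33.8 and 27.7% at 0 h, 24.9 and 25.9% at 24 h, and 24.2 and 28.6% at 48 h. Those chosen at 48 h held 31.6 and 26.2% at 0 h, 25.4 and 23.0% at 24 h, and 25.9 and 30.7% at 48 h. The top 100 of 24 h and of 0 h had 68 genes in common, those of 48 h and 0 h 60, and those of 48 h and 24 h 78. The overlap between replicates of a harvest was not counted. The 0 h leaves thus put more of their reads into their leading genes than the later leaves put into theirs. These sets were chosen on the same libraries, so the shares describe them and are no test.

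The 24 h library of replicate 2 stood apart from the other 5. Log2 CPM (read counts scaled to a common library size) of the 24 h replicates correlated at r = 0.899 across genes, which are not independent replicates, against 0.964 at 0 h and 0.945 at 48 h. At least a 2-fold gap separated the 24 h replicates at 9542 of 24870 genes tested (38.4%), the 48 h replicates at 5425 (21.8%) and the 0 h replicates at 3696 (14.9%). Of the 12 replicate pairs of the series, the 24 h pair had the most such genes. Between harvests, 24 h replicate 1 and 48 h replicate 3 differed by 2-fold at 4160 genes (16.7%), fewer than either of these libraries from its own replicate. The biological coefficient of variation, the spread between replicates beyond counting noise, was 0.328 at 0 h, 0.640 at 24 h and 0.448 at 48 h. It was 0.375 over the EE501F2_093 controls and 0.407 over all 24 libraries.

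**Figure D1:**
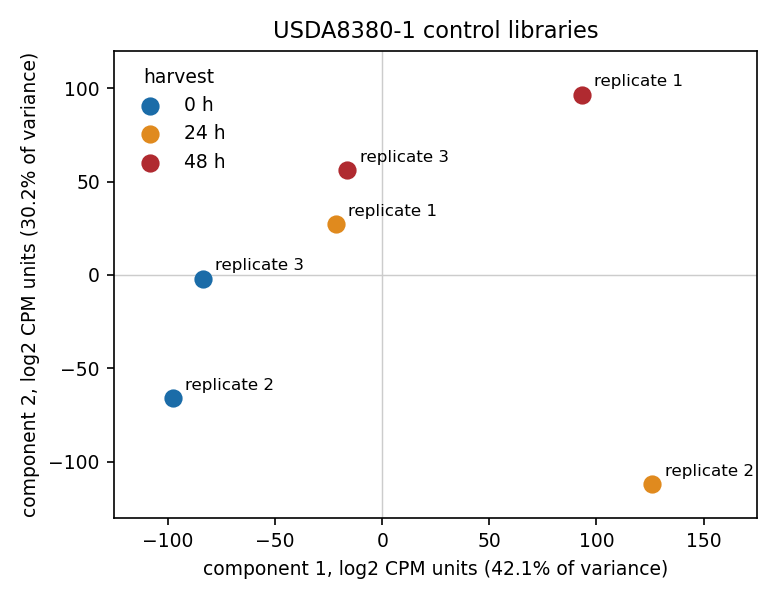
Principal components of log2 CPM of the 6 USDA8380-1 control libraries, component 1 (42.1% of the variance) across and component 2 (30.2%) up, coloured by harvest and labelled by replicate. The 0 h libraries lie at the left, at -97.8 and -83.7 on component 1, while 24 h replicate 2 (126) and 48 h replicate 1 (93.2) lie at the right and at opposite ends of component 2.

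The leading component, with 42.1% of the variance, put 24 h replicate 2 at 126 and 48 h replicate 1 at 93.2, while 24 h replicate 1 was at -21.7 and 48 h replicate 3 at -16.3. The 0 h libraries were at -97.8 and -83.7, below all the later ones. The later harvests therefore did not form tight groups, and on this component 1 library of each lay nearer to 0 h than the other.

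At 48 h, 124 genes were higher and 88 were lower than at 0 h in USDA8380-1 control leaves, by edgeR's quasi-likelihood test at a Benjamini-Hochberg adjusted p under 0.05. The 212 genes are 0.852% of the 24870 tested, and the higher and lower ones are 0.499% and 0.354%. Their absolute log2 fold changes were at least 1.15, with a median of 2.69, while the median absolute change of all genes tested was 0.57. Over the 6 libraries the higher genes had a median level of 26.5 CPM and the lower ones of 11.9 CPM, against 8.52 CPM for all genes tested. Of the 124 higher genes 16 averaged at least 100 CPM, and of the 88 lower genes 2 did. These means hold more libraries of 24 and 48 h than of 0 h, which favours the higher genes, so the gap in level is no finding. In a pooled leaf sample, fewer cells that express a gene and less of its RNA per cell cannot be told apart. The genes named below had the largest fold change or the smallest p among called genes of at least 5 CPM whose harvests did not overlap. Where the same gene held both, the gene with the next smallest p was named too.

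Soltu.DM.01G040240.1, on chromosome 1 by its identifier, was the rise with the smallest p. It had 102 and 38.2 CPM at 48 h, against 1.00 and 0.652 CPM at 0 h. The groups were far apart, at means of 70.3 ± 45.4 and 0.827 ± 0.247 CPM (SD, n = 2 each). EdgeR gave it an adjusted p of 0.0148 at a log2 fold change of 6.41 (SE 0.88). At 24 h it stood between them, at 16.4 and 26.0 CPM. The 18 libraries outside this arm held 32.4 to 203 CPM of it, so the 0 h control leaves were the lowest of the series. Without 48 h replicate 1 its log2 fold change was 5.54 and the call ended (edgeR adjusted p = 0.230), as it did without 0 h replicate 2 (6.75, adjusted p = 0.174) and without 0 h replicate 3 (6.14, adjusted p = 0.0765).

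The largest rise among them belonged to Soltu.DM.04G028880.1, on chromosome 4 by its identifier. It had 51.6 and 2.13 CPM at 48 h, against 0.00 and 0.196 CPM at 0 h, where it had 0 and 6 counts. The harvests did not overlap, but the 48 h libraries themselves lay far apart. This was a difference of 7.97 on the log2 scale (SE 1.35, adjusted p = 0.0222 by edgeR), and it was 4.31 without 48 h replicate 1 (adjusted p = 0.239). It was 12.83 without 0 h replicate 3, which leaves a 0 h group without a count, so that fitted value depends on the prior count. The 24 h libraries had 4.45 and 11.1 CPM of it.

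Among the falls, Soltu.DM.12G023800.1, on chromosome 12 by its identifier, had the smallest p at 48 h. It had 7.88 and 6.91 CPM at 48 h, against 57.0 and 54.6 CPM at 0 h. Replicates agreed within 1.7 CPM (SD) in both harvests, and edgeR put the change at -2.91 on the log2 scale (SE 0.42, adjusted p = 0.0148). Its call ended without 48 h replicate 1 (-3.01, adjusted p = 0.230), without 0 h replicate 2 (-2.88, adjusted p = 0.140) and without 0 h replicate 3 (-2.94, adjusted p = 0.0516), with nearly the same fold change each time.

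Soltu.DM.07G017600.1, on chromosome 7 by its identifier, was the largest fall among them. It had 0.00 and 0.759 CPM at 48 h, against 71.0 and 16.2 CPM at 0 h. The 0 h libraries differed strongly from each other and still lay far above the later ones. EdgeR put the change at -6.94 on the log2 scale (SE 1.42, adjusted p = 0.0427). Without 0 h replicate 2 it was -5.47 (adjusted p = 0.420), and without 48 h replicate 3, which leaves 0 counts at 48 h, the fitted value was -13.53 and depends on the prior count. At 24 h it had 0.376 and 0.037 CPM, and the 18 libraries outside the arm held at most 0.212 CPM. It was therefore read almost only in the 0 h leaves of the USDA8380-1 control cage.

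**Figure D2:**
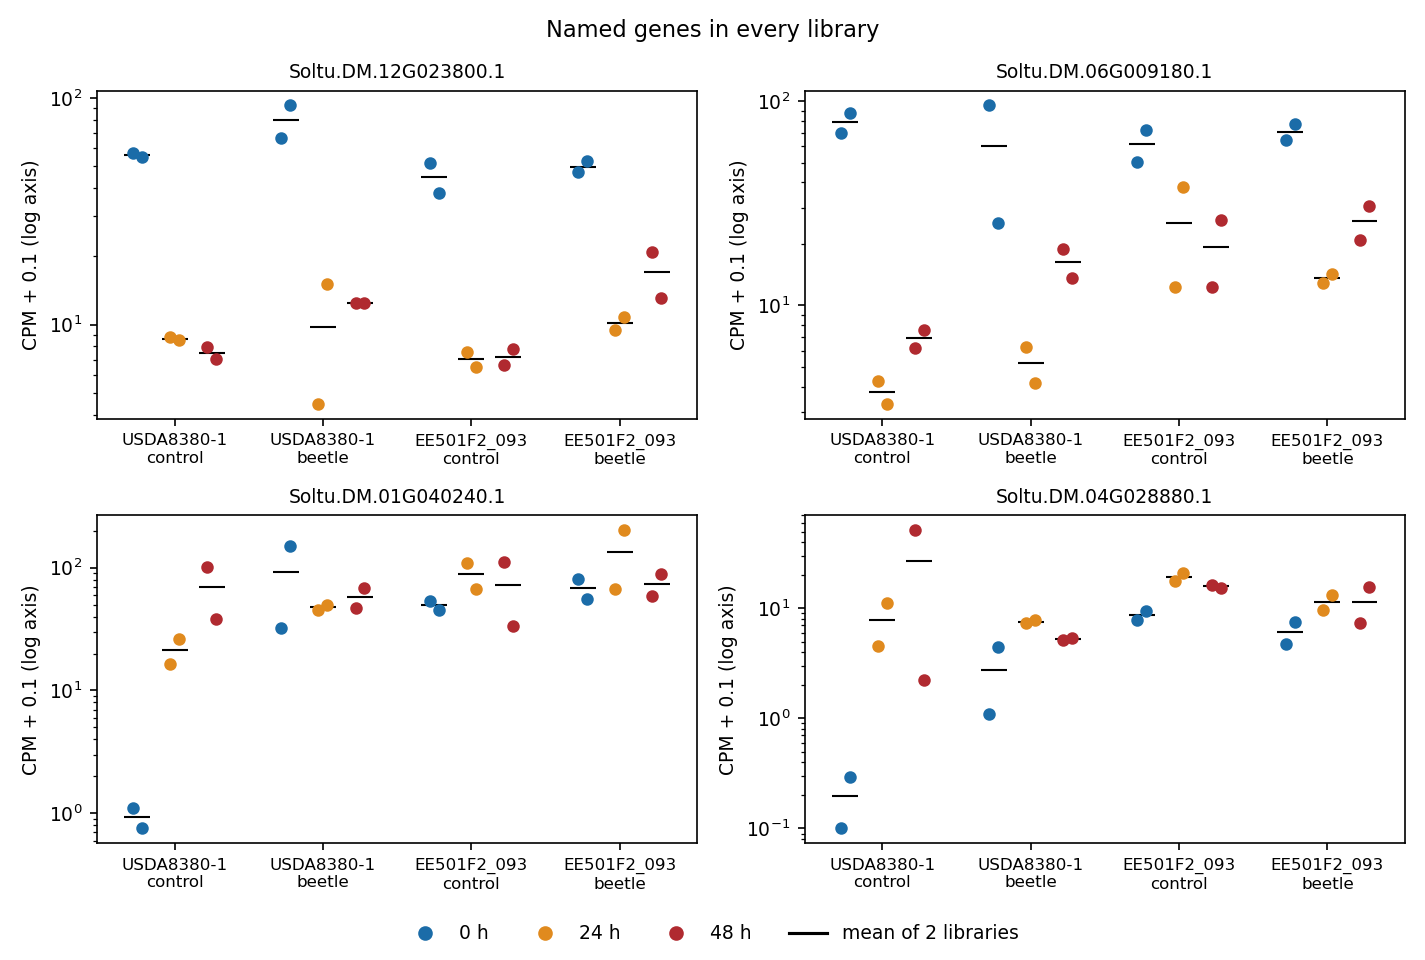
CPM + 0.1 on a log axis for 4 named genes in all 24 libraries, by genotype, arm and harvest. Each point is a library and each line the mean of 2. Soltu.DM.12G023800.1 is high at 0 h and low later in all 4 arms, while Soltu.DM.01G040240.1 is near 1 CPM only in the 0 h libraries of the USDA8380-1 controls.

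The number of calls at 48 h changed with single libraries and with the set of libraries in the fit. EdgeR called 0 genes without 48 h replicate 1 (1657 genes at an unadjusted p under 0.05; DESeq2 called 1894 with all libraries), 0 without 0 h replicate 2 (2175 genes) and 7 without 0 h replicate 3. It called 712 without 48 h replicate 3, and 513 and 526 without 24 h replicates 2 and 1. Without 48 h replicate 1 the 124 higher genes had a median log2 fold change of 1.79, against 2.53 with it, and the 88 lower genes one of -2.75, against -2.85. A fit of the 4 compared libraries alone had 0 calls and 4396 genes below an unadjusted p of 0.05.

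At 24 h, 17 genes were higher and 13 lower than at 0 h by the same test. The 30 calls are 0.121% of the genes tested (higher 0.0684%, lower 0.0523%), with absolute log2 fold changes of at least 1.44. With RLE scaling the balance turned to 5 higher and 12 lower. The library that stood apart belongs to this harvest. The other libraries of the comparison also chose the 30 genes, so signs kept without that library are no test. Without it edgeR called 6 genes, 1 of them among the 30, while all 17 higher genes kept a positive and all 13 lower genes a negative log2 fold change, with medians of 2.08 and -1.84 (2.96 and -1.98 with it).

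Soltu.DM.06G009180.1, on chromosome 6 by its identifier, was the largest fall among the genes called at 24 h. It had 4.14 and 3.19 CPM at 24 h, against 70.0 and 87.1 CPM at 0 h. These values are tight within each harvest, and edgeR gave -4.42 on the log2 scale (SE 0.62, adjusted p = 0.0414). Without the library that stood apart it was -4.24 (adjusted p = 0.145). At 48 h the gene had 6.08 and 7.51 CPM. Soltu.DM.06G009180.1 also had the smallest p of these falls, and Soltu.DM.12G023800.1 was named at this harvest too, for the next smallest. Soltu.DM.12G023800.1 had 8.70 and 8.45 CPM at 24 h, against the same 0 h libraries. The change was -2.70 on the log2 scale (SE 0.41, adjusted p = 0.0414 by edgeR), and -2.68 without that library (adjusted p = 0.145).

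The 2 rises named at 24 h leaned on 24 h replicate 2. As a list, the 17 higher genes had medians of 4.04 and 4.94 log2 CPM in 24 h replicates 1 and 2, against 1.29 and 1.76 at 0 h. Soltu.DM.05G020900.1, on chromosome 5 by its identifier, had 4.02 and 84.0 CPM at 24 h, against 0.462 and 0.261 CPM at 0 h. Most of its mean came from 1 library. EdgeR put it at 6.92 on the log2 scale (SE 1.25, adjusted p = 0.0476), and at 3.48 without 24 h replicate 2 (adjusted p = 0.216). With RLE scaling its adjusted p was 0.0526. Soltu.DM.03G035970.2, on chromosome 3 by its identifier, had 4.24 and 26.9 CPM at 24 h, against 0.462 and 0.619 CPM at 0 h. Here too the second library was the higher one, with a change of 4.83 on the log2 scale (SE 0.73, adjusted p = 0.0414 by edgeR) that was 2.96 without it (adjusted p = 0.0847). At 48 h this gene had 10.2 and 7.29 CPM, above 24 h replicate 1.

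Single libraries moved the 24 h count as well. Without 0 h replicate 2 edgeR had 0 calls (3016 genes below an unadjusted p of 0.05) and without 0 h replicate 3 also 0 (3421), while DESeq2 called 1941 with all libraries. EdgeR called 3269 without 24 h replicate 1, when replicate 2 is the whole 24 h group, and 197 and 224 without 48 h replicates 1 and 3.

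Between 48 h and 24 h edgeR had 0 calls (0% of the genes tested). An unadjusted p under 0.05 was reached by 3159 genes, of which 886 were higher and 2273 lower at 48 h. Over all genes tested 45.8% had a positive and 53.3% a negative log2 fold change, against 49.9% and 49.1% without 24 h replicate 2. DESeq2 called 391 in this comparison. Without 24 h replicate 2 edgeR called 33 genes, all lower at 48 h, and without 24 h replicate 1 it called 1761. Without 48 h replicate 3 it called 2. The smallest p of a fall belonged to Soltu.DM.12G000130.1, on chromosome 12 by its identifier, with 1.20 and 1.25 CPM at 48 h, against 21.9 and 9.89 CPM at 24 h. It was low in both 48 h libraries, with a log2 fold change of -3.69 (SE 0.56) that did not pass the adjustment (edgeR adjusted p = 0.149). It passed without 24 h replicate 2 (-4.15, adjusted p = 0.00954) and without 24 h replicate 1 (-3.01, adjusted p = 0.00865). At 0 h it had 16.4 and 9.26 CPM, and it was among the 88 genes called lower at 48 h than at 0 h (log2 fold change -3.385, edgeR adjusted p = 0.019). The 18 libraries outside the arm had 1.35 to 5.99 CPM of it. The corresponding gene in the other direction was Soltu.DM.02G028820.1, on chromosome 2 by its identifier, with 757 and 670 CPM at 48 h, against 283 and 125 CPM at 24 h (log2 fold change 1.81, SE 0.36, edgeR adjusted p = 0.242). It passed without 24 h replicate 1 (2.51, adjusted p = 0.00422).

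The 3 comparisons share libraries, so their values are given side by side. The 124 genes higher at 48 h than at 0 h had median levels of 2.78 and 2.56 log2 CPM in the 0 h libraries, 4.54 and 4.65 at 24 h, and 5.69 and 4.66 at 48 h. The 24 h libraries, including the one that stood apart, were near each other for these genes, and 48 h replicate 3 was close to them. The 88 lower genes had medians of 4.77 and 4.05 log2 CPM at 0 h, 2.77 and 2.69 at 24 h, and 1.09 and 1.64 at 48 h. In counts, the higher genes held 0.196 and 0.255% of a library at 0 h, 0.718 and 0.791% at 24 h, and 1.73 and 0.815% at 48 h. The calls thus concern a small part of the leaf mRNA.

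**Figure D3:**
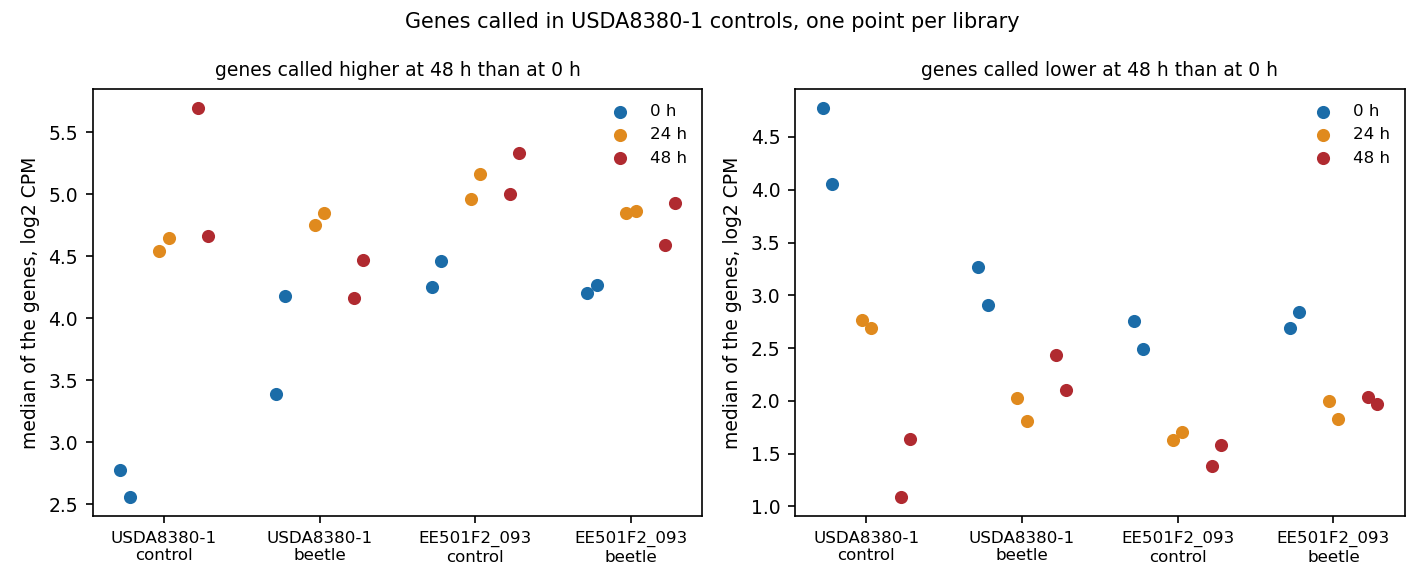
Median log2 CPM of the 124 genes called higher (left) and the 88 called lower (right) at 48 h than at 0 h in USDA8380-1 controls, one point for each of the 24 libraries, by genotype, arm and harvest. The USDA8380-1 control 0 h libraries lie lowest on the left (2.78 and 2.56) and highest on the right (4.77 and 4.05), and in the 3 other arms most later libraries lie above their 0 h libraries on the left and all lie below them on the right.

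The libraries outside the arm entered the filter on low counts, the scaling and the shared estimate of spread, but not the fold changes between harvests that called these genes. In EE501F2_093 controls, which stood in another beetle-free cage and were harvested at the same hours, 122 of the 124 genes had a positive log2 fold change at 48 h over 0 h, with a median of 0.72. Over all genes tested 49.8% were positive and the median was 0.00. Of the 88 lower genes 76 had a negative log2 fold change there, with a median of -0.91, against 49.5% of all genes. At an unadjusted p under 0.05, 37 of the 124 were higher and 38 of the 88 lower in EE501F2_093 controls, against 376 and 531 of all 24870. EE501F2_093 controls had 0 edgeR calls of their own at 48 h, and 907 genes below an unadjusted p of 0.05. Of the 24 h lists, 16 of the 17 higher genes were positive and all 13 lower genes were negative in EE501F2_093 controls at 24 h, with medians of 0.82 and -0.48, against 49.8% positive, 49.5% negative and a median of 0.00 over all genes. In the EE501F2_093 beetle arm 107 of the 124 were positive and 75 of the 88 negative at 48 h, against 51.5% and 48.2% of all genes. Genes of a list are not independent replicates, and these counts describe them without a test.

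**Figure D4:**
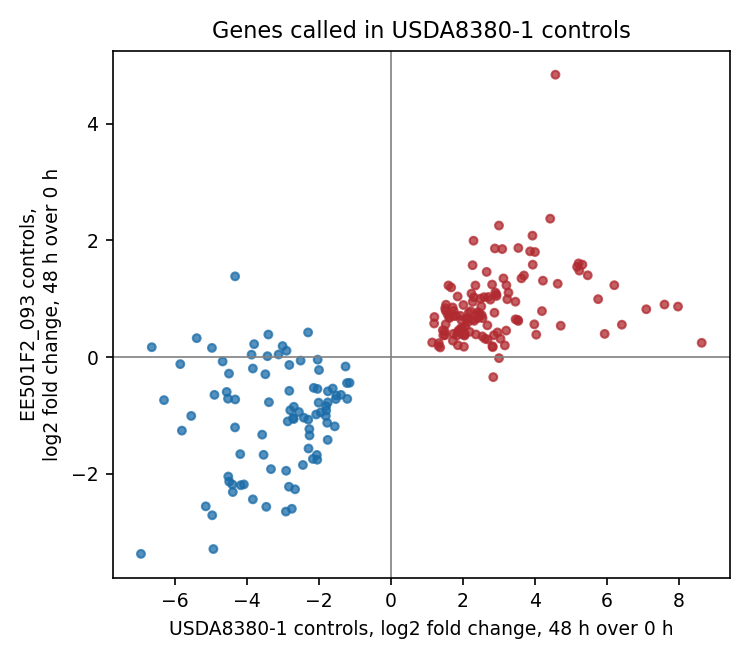
Log2 fold changes at 48 h over 0 h of the 212 genes called in USDA8380-1 controls, in USDA8380-1 controls across and in EE501F2_093 controls up, one point per gene (red higher, blue lower). Of the higher genes 122 of 124 lie above 0 and of the lower genes 76 of 88 lie below 0, with smaller changes in EE501F2_093.

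Changes were larger in USDA8380-1, whose libraries chose the genes, so that gap is no finding. The difference between the genotypes' time effects was tested itself, and edgeR called 0 genes at 48 h (909 at an unadjusted p under 0.05, DESeq2 8 calls) and 0 at 24 h (1272, DESeq2 7 calls). The smallest adjusted p were 0.968 and 0.893. For Soltu.DM.01G040240.1 the difference at 48 h was 5.85 on the log2 scale (SE 1.06) and did not pass the adjustment (edgeR adjusted p = 0.968). For Soltu.DM.12G023800.1 it was -0.27 (SE 0.55, edgeR adjusted p = 0.998).

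Soltu.DM.12G023800.1 showed one pattern in every arm. Outside the USDA8380-1 controls it had 4.36 to 20.9 CPM in the 12 libraries of 24 and 48 h, with a median of 10.1, against 37.9 to 92.6 CPM in the 6 libraries of 0 h, with a median of 51.9. No later library reached a 0 h library. In EE501F2_093 controls alone it had 6.38 to 7.70 CPM at 24 and 48 h, against 37.9 and 51.4 CPM at 0 h, with log2 fold changes of -2.68 at 24 h (SE 0.41, edgeR adjusted p = 0.193) and -2.65 at 48 h (SE 0.41, adjusted p = 0.218). In the USDA8380-1 beetle arm the log2 fold change at 24 h was -3.04 (SE 0.42, edgeR adjusted p = 0.0260). Soltu.DM.06G009180.1 had 4.08 to 38.0 CPM in the later libraries outside the arm and 25.2 to 95.2 CPM in the 0 h ones, which overlap. The 25.2 CPM is from the shallowest library of the series (64 counts).

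The beetle arm of USDA8380-1 shares the genotype and, at 24 and 48 h, adds feeding. Of the 124 higher genes 94 had a positive log2 fold change there at 48 h, with a median of 0.48, and of the 88 lower genes 64 had a negative one, with a median of -0.45. At 24 h the counts were 108 of 124 and 82 of 88, with medians of 0.86 and -0.95. Over all genes tested 48.7% were positive and 50.3% negative at 48 h, and 50.9% and 48.2% at 24 h. One 0 h library of that arm, replicate 3, had 2114184 counts on genes and stands apart. Without it the counts at 48 h were 114 of 124 and 74 of 88, with medians of 0.76 and -0.57, beside 49.3% positive and 49.5% negative genes overall. At 24 h they were then 118 of 124 and 85 of 88, with medians of 1.12 and -1.13, beside 51.8% positive and 47% negative genes overall. Of the genes called at 24 h in the controls, 11 of the 17 higher ones were positive in the beetle arm at 24 h, with a median of 0.60, and 12 of the 13 lower ones were negative, with a median of -0.94. Without the shallow library these counts were 12 of 17 and 12 of 13. At 48 h 10 of the 17 were positive and 11 of the 13 negative with all libraries, and 12 of 17 and 13 of 13 without that library. In the beetle arm the list of higher genes had median levels of 3.39 and 4.18 log2 CPM at 0 h, where no beetle had been placed, against 2.78 and 2.56 in the control arm at the same hour. The list of lower genes had 3.27 and 2.91 log2 CPM in those beetle-arm libraries, against 4.77 and 4.05 in the control arm.

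Testing the control arm's change against that of the beetle arm, edgeR called 0 genes at 48 h (3455 at an unadjusted p under 0.05, DESeq2 199 calls) and 0 at 24 h (2258, DESeq2 111 calls). The smallest adjusted p were 0.194 and 0.213. Without the shallow 0 h library and 24 h replicate 2 the calls were also 0, with 1755 genes at 48 h and 566 at 24 h below an unadjusted p of 0.05. For Soltu.DM.01G040240.1 the controls' change at 48 h exceeded that of the beetle arm by 7.06 on the log2 scale (SE 1.09, edgeR adjusted p = 0.194). That difference rests on the 0 h libraries, with 1.00 and 0.652 CPM in the control arm and 32.4 and 151 CPM in the arm that had yet to receive beetles, the 151 CPM being 383 counts of the shallow library. For Soltu.DM.03G035970.2 the difference at 24 h was 5.61 (SE 0.95, edgeR adjusted p = 0.213), with 0 h values of 0.462 and 0.619 CPM in the control arm and 6.91 and 13.0 CPM in the beetle arm, the 13.0 CPM being 33 counts of that library. A difference between cages and plants and a difference between arms cannot be told apart here.

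Across gene levels, calls at 48 h made up 0.117% of genes under 1 CPM, 0.680% of those of 1 to 5 CPM, 1.07% of those of 5 to 20 CPM, 1.29% of those of 20 to 100 CPM and 1.11% of those of at least 100 CPM. Higher calls outnumbered lower ones most at the top. They were 54 against 28 at 20 to 100 CPM and 16 against 2 at 100 CPM and above. These levels average more libraries of the later harvests than of the first, which favours higher calls, so this excess is no finding. Changes of at least 2-fold were most frequent where counts were lowest, at 49.0% of genes under 1 CPM, against 16.9% of those of 20 to 100 CPM. Among genes under 1 CPM, 4 higher and 2 lower of 5143 were called.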

How the data were processed

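RNA of leaf pools was sequenced as stranded mRNA libraries with single reads of 50 nt, per the labels' protocols. Per the submitters' processing notes, the tools were HTSeq, Picard, STAR 2.7.3a and Trimmomatic 0.35. Their settings, the build and the annotation: not given in the sources used here. Deposited were raw read counts per gene for 32917 identifiers. The 5 HTSeq summary lines entered no test and no count on genes. Reads outside genes were 7.66 to 11.2% in the 6 libraries, as a share of reads on genes, outside them or ambiguous between genes. Near-identical gene copies may share reads, which leaves single genes of such families uncertain.

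All 24 libraries entered 1 fit with 12 groups and 12 residual degrees of freedom: filterByExpr (24870 genes kept), TMM scaling, edgeR 4.0.16 (quasi-likelihood test) in R 4.3.3, with Benjamini-Hochberg adjustment over all genes tested. Each SE is the absolute log2 fold change over the root of its F statistic. CPM are on the TMM scale, and log2 CPM use a prior count of 2. Functions were tested on simulated data.

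Named genes are, per comparison and direction, the largest absolute log2 fold change and the smallest p. Where the same gene held both, the next smallest p was taken. They come from genes with an adjusted p under 0.05, at least 5 CPM on average and harvests that do not overlap. With no such gene, the smallest unadjusted p under the same CPM and overlap conditions was taken. The planned choice by product and the planned lists of products could not be applied without gene names. The members, comparisons and lists were chosen with earlier results of these data known. Alternatives were RLE scaling, no filter, DESeq2 1.42.0, smaller sets of libraries, a replicate block, a minimum log2 fold change, and leaving libraries out.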

Additional observations from a re-analysis of the deposited data

How the results depend on the processing

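Counts of calls below are for 24 h over 0 h (main value 30), 48 h over 0 h (212) and 48 h over 24 h (0), by edgeR unless another tool is named. Both counts against 0 h were unchanged with a minimum absolute log2 fold change of 1, and the third was 0. RLE scaling gave 17 at 24 h, 207 of the 212 genes remained at 48 h, and the third count stayed at 0. Without a filter on low counts 102 were called at 24 h. DESeq2 called 1941, 1894 (874 higher, 1020 lower) and 391, and for the differences of time effects 7 and 8 against EE501F2_093 controls and 111 and 199 against the USDA8380-1 beetle arm (24 and 48 h), where edgeR called 0. The compared libraries alone gave 0, 0 and 0, as did the 6 control libraries alone (2450, 2796 and 1308 genes at an unadjusted p under 0.05). Without both libraries that stand apart the counts were 8 (2 of the 30), 611 (all 212 among them) and 26.

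With the replicate block, 0 and 98 genes were called against 0 h and 0 at 48 h over 24 h. Any 2 harvests share 1 replicate number, and deviations of same-numbered libraries from their harvest means correlated at 0.0775, -0.11 and -0.188. Each harvest mean is of 2 libraries and the partner library differs between harvests, so these values cannot decide whether the numbers pair the libraries. Leaving out 1 control library at a time, with the lone library of a harvest assumed to vary like the other groups, gave 0 to 3269 calls at 24 h, 0 to 712 at 48 h and 0 to 1761 between them. For the differences of time effects it gave 0 to 90 (24 h) and 0 to 3 (48 h) against EE501F2_093 controls, and 0 to 888 (24 h) and 0 to 35 (48 h) against the beetle arm. No named gene changed sign under the settings run. The rule of naming asked for harvests that do not overlap, so these kept signs are no test. The cause of these differences between settings was not tested.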

Other observations

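Calls at 48 h over 0 h lay on all 12 chromosomes read from the identifiers, between 0.485% of the tested genes of chromosome 8 (9 of 1856) and 1.24% of those of chromosome 10 (21 of 1699), against 0.852% of all genes. The 12 tested genes with a code for unplaced sequence had 0 calls (edgeR, as above).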
